A study of Rattus norvegicus with 6 samples.

Results

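Homeobox transcription factor genes were examined in oligodendrocyte progenitor cells (OPCs) cultured from rat, the dividing precursors of the cells that make myelin, with and without fibrinogen. The genes were taken by symbol from the platform's probe annotation and cover the Hox, Dlx, Lhx, Nkx, Pax, Pou, Dbx, Irx, Msx, Meis, Pbx, Otx, Emx, Gsx and En families and the sine oculis relatives Six3, Six4 and Six6, leaving out Nkx2-2 and Nkx6-2. The rule gave 86 genes of the 13949 tested, each with 1 probe set of its own, and all 86 had values on every array. Among these, Pou2af1 encodes a coactivator of POU factors with no homeodomain of its own, and Pax1 and Pax9 encode paired domain proteins that lack one. The cells came from newborn rat pups and had recovered for 2 days in a growth medium with N2, B27, NT3 and PDGF. The 3 control samples were left unstimulated, and the 3 fibrinogen samples received fibrinogen, a blood protein that forms clots and reaches the brain through leaky vessels, for 12 h. The sources used here do not give the strain, the brain region or the fibrinogen dose. The title of the series links fibrinogen to bone morphogenetic protein (BMP) signaling in OPCs.

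Homeobox genes encode transcription factors that bind DNA through the homeodomain, a compact helical fold that commonly reads sites with a TAAT core. In the embryo they divide the nervous system into territories. Hox genes mark the hindbrain and spinal cord, Otx, Emx and Dlx genes mark the forebrain and midbrain, and Nkx, Dbx, Irx and Pax genes divide the neural tube from ventral to dorsal. Many persist after birth in glia and neurons, and Msx and Dlx genes are known to respond to BMP signals in several embryonic tissues.

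Each probe set had 1 log2 level on each array, and such levels do not allow amounts of different genes to be compared. Background was gauged from 956 genes for olfactory and vomeronasal receptors, whose median level was 4.03 and whose 95th percentile was 5.51. By their mean over the 6 arrays, 54 of the 86 homeobox genes (62.8%) and 71.3% of all genes lay above that percentile. The median level of all genes was between 6.85 and 6.89 on each array. Fibrinogen 2 stood apart, with an SD of the homeobox genes about their group mean of 0.109 against 0.0850 to 0.0951 on the other arrays. All 5 OPC markers examined (Pdgfra, Cspg4, Sox10, Ptprz1 and Gpr17) lay above the receptor percentile, with Pdgfra at 11.50 ± 0.05 (SD, n = 3) in controls. So did all 4 oligodendrocyte markers, all 6 astrocyte markers, 7 of 11 neuron markers and 2 of 7 microglia markers. The same held for 1 of 3 endothelial markers and 3 of 5 pericyte and fibroblast markers. In bulk samples, fewer cells of a type and less RNA per cell cannot be told apart.

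Fibrinogen raised 2 of the 86 homeobox genes, Dbx2 and Meis2, and lowered 0 of them (limma, Benjamini-Hochberg adjusted p under 0.05 over all 13949 genes). The 2 genes are 2.33% of the homeobox genes, while 3.1% of all genes changed, 1.81% upward and 1.29% downward. At an unadjusted p under 0.05, 7 homeobox genes were higher and 1 was lower, together 9.30% of the 86 beside 15.6% of all genes (8.12% higher and 7.46% lower). The median log2 change of the 86 was 0.023, that of all genes was -0.0033, and the median size of a change without regard to sign was 0.077 and 0.087. A log2 change here is the fibrinogen mean minus the control mean.

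**Figure D1:**
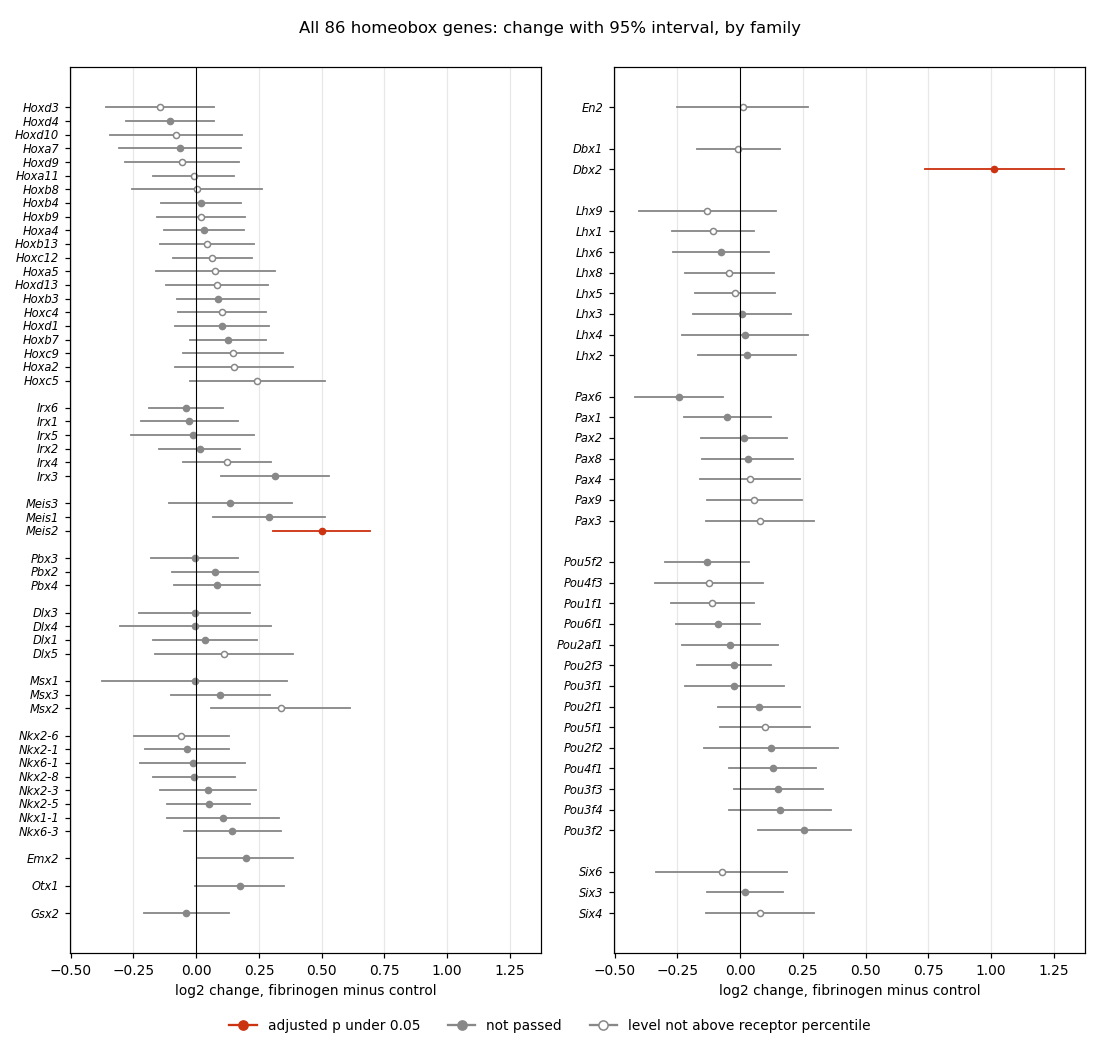
Log2 change of each of the 86 homeobox genes (x axis, fibrinogen minus control, points) with its 95% interval (lines), grouped by family; open points lie at or below the receptor percentile. Dbx2 at 1.01 and Meis2 at 0.50 are the 2 genes past the test, in red, and the other 84 lie between -0.24 and 0.34.

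Dbx2, a transcriptional repressor known from progenitors of ventral spinal interneurons, had the largest change of the homeobox genes. Its log2 level was 7.81, 7.81 and 7.61 in control 1, 2 and 3 and 8.65, 9.03 and 8.59 in fibrinogen 1, 2 and 3. The groups were well apart, since the lowest fibrinogen array was 0.78 above the highest control, and fibrinogen 2 was the highest array. The mean went from 7.74 ± 0.12 to 8.76 ± 0.24 (SD, n = 3 each), a log2 change of 1.01 ± 0.12 (SE, adjusted p = 0.00386, limma). On a linear scale this was a 2.02-fold increase, with a 95% interval from 1.67 to 2.44. Dbx2 passed in each of 6 fits that left out 1 array, with log2 changes from 0.88, without fibrinogen 2, to 1.1 and adjusted p-values of at most 0.0237. Its relative Dbx1, which marks neighbouring interneuron progenitors, was under the receptor percentile with and without fibrinogen, at 5.30 ± 0.05 and 5.30 ± 0.08, with a change of -0.0067.

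The bases before the Dbx2 start site are shown because this gene had the largest change. They come from RefSeq on GRCr8, chr7:128681887-128682136, the minus strand, and run 5′ to 3′ over the 250 bases that end just before the annotated start. Capitals mark the only TAAT, the core letters of many homeodomain sites, searched on both strands as TAAT and ATTA; it begins 241 bases before the start.
Dbx2: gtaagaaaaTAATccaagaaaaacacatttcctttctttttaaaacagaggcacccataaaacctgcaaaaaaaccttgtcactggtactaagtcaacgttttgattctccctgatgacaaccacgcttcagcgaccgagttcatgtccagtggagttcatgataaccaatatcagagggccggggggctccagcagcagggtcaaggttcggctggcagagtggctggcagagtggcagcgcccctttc
TAAT in either orientation was present in 52.4% of 18999 protein-coding promoters of this length and in 24 of the 57 homeobox genes whose symbol matched the table (42.1%). The letters CAGAC, as in a SMAD binding element, and TGACAG, the letters bound by MEIS proteins, were absent from these 250 bases on both strands. CAGAC was present in 42.3% of all promoters and TGACAG in 15.1%; the pair share the letters CAG and can overlap. In GRCr8 gene order, the nearest tested protein-coding genes on either side of Dbx2 were Nell2 and Ano6, with log2 changes of 0.09 ± 0.07 and -0.14 ± 0.08 (SE), neither past the test (limma adjusted p = 0.570 and 0.452).

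The TALE class comprises homeodomain proteins with an extended loop, among them the MEIS and PBX cofactors that bind DNA together with HOX and other homeodomain proteins. All 6 measured MEIS and PBX genes lay above the receptor percentile. Of these 1 rose and 0 fell in limma, beside 1.81% and 1.29% of all genes. At p under 0.05 without adjustment (limma) 2 were higher and 0 lower, beside 8.12% and 7.46% of all genes. Meis2, also a partner of PAX6 and DLX proteins in the forebrain, had log2 levels of 8.56, 8.41 and 8.31 in control 1, 2 and 3. On fibrinogen 1, 2 and 3 its levels were 8.92, 9.0 and 8.86. The groups did not overlap. The mean went from 8.43 ± 0.13 to 8.93 ± 0.07 (SD, n = 3 each), a log2 change of 0.50 ± 0.08 (SE, adjusted p = 0.0181, limma), or 1.41-fold with a 95% interval from 1.24 to 1.62. The call ended without control 2, control 3 or fibrinogen 1, with log2 changes of 0.49, 0.44 and 0.50 and adjusted p-values of 0.0852, 0.0866 and 0.0592. The nearest tested neighbours of Meis2 in GRCr8, Dph6 and the ERK pathway inhibitor gene Spred1, had changes of 0.13 ± 0.14 and 0.40 ± 0.12 (SE), neither past the test (adjusted p = 0.727 and 0.128, limma).

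Meis1, the closest relative of Meis2 in this class, had levels of 7.27, 7.09 and 7.0 in controls and 7.56, 7.38 and 7.29 with fibrinogen. Each fibrinogen array lay above each control, by a margin of 0.02 at the nearest pair. The change of 0.29 ± 0.10 (SE) did not pass (adjusted p = 0.191, limma; 95% interval 0.07 to 0.51). Meis3, with a change of 0.14, overlapped between groups, at 7.87, 7.94 and 8.03 in controls and 8.12, 7.86 and 8.27 with fibrinogen. The PBX genes, whose products are the common partners of MEIS and HOX proteins, had smaller changes than the MEIS genes, with 0.08 for Pbx2 and Pbx4 and -0.0067 for Pbx3. The 95% interval was -0.09 to 0.25 for Pbx2, -0.18 to 0.17 for Pbx3 and -0.09 to 0.26 for Pbx4.

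**Figure D2:**
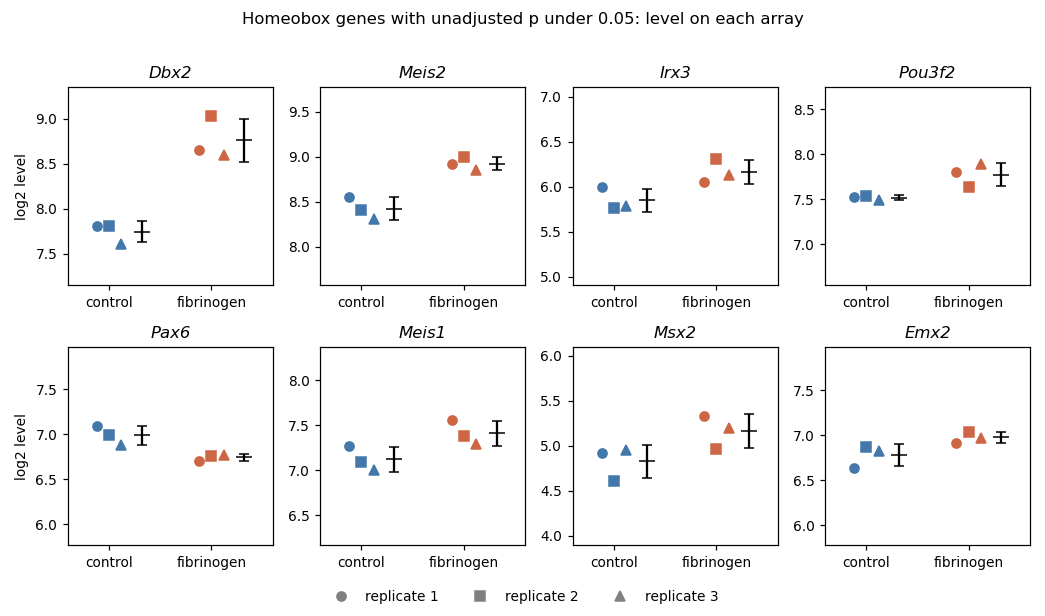
Log2 level (y axis) of the 8 homeobox genes with an unadjusted p under 0.05 on each of 3 control (blue) and 3 fibrinogen (orange) arrays; bars give the mean and SD, and each panel spans the same range of log2 units. Dbx2 shows the widest gap between the groups, and Pax6 is the gene that is lower with fibrinogen.

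The groups did not overlap for 13 of the 86 genes. In 11 of them (12.8%, beside 10.7% of all genes) every fibrinogen array was above every control: Dbx2, Meis2, Meis1, Irx3, Irx4, Pou3f2, Pou3f3, Emx2, Otx1, Msx2 and Hoxb7. In Pax6 and Pou5f2 (2.33%, beside 10.6% of all genes) every fibrinogen array was below. All but Dbx2 and Meis2 missed the threshold.

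Pax6, a paired and homeodomain factor of cortical and ventral neural tube progenitors, had the lowest p of the genes that were lower with fibrinogen. Its log2 level was 7.09, 6.99 and 6.88 in control 1, 2 and 3. With fibrinogen the levels were 6.70, 6.76 and 6.77, all below the lowest control. The mean went from 6.99 ± 0.11 to 6.74 ± 0.04 (SD, n = 3 each), a change of -0.24 ± 0.08 (SE). This missed the threshold (adjusted p = 0.156, limma), and Pax6 did not pass in any fit without 1 array (adjusted p from 0.160 to 0.416). The other 6 Pax genes had changes between -0.05 and 0.08, none past the test, and Pax3, Pax4 and Pax9 lay below the receptor percentile.

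The Pax6 sequence is shown as that of the one gene with an unadjusted p under 0.05 that was lower, and because its product works with MEIS proteins. It is the RefSeq window on GRCr8, chr3:112590346-112590595, plus strand, 5′ to 3′, the 250 bases before the annotated start. Capitals mark TGACAG, the MEIS letters, searched on both strands as TGACAG and CTGTCA. It occurs at 2 places, beginning 234 and 17 bases before the start.
Pax6: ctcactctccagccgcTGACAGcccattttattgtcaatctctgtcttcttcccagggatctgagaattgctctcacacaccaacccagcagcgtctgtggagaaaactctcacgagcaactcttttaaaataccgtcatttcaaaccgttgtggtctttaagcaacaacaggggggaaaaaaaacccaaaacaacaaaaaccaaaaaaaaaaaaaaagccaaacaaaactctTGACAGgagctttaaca
TGACAG was present in 13 of the 57 homeobox genes with a promoter entry (22.8%), beside the 15.1% of all promoters given above. The Pax6 window also held 1 CAGAC, present in 24 of the 57 (42.1%), and no TAAT. These matches describe letters only.

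Genes linked to BMP signals in the embryo were Msx1, Msx2, Dlx1, Dlx3 and Dlx5 among those measured, 5 of 7 listed. Of these 0 rose and 0 fell in limma, and the median log2 change was 0.03. Without adjustment, at p under 0.05 (limma), 1 was higher and 0 were lower, beside 8.12% and 7.46% of all genes. Msx2, a repressor that BMPs switch on in limb and skull, was the member with the largest difference. Its levels were 4.92, 4.61 and 4.95 in controls and 5.33, 4.96 and 5.20 with fibrinogen. The lowest fibrinogen array exceeded the highest control by only 0.01, the last digit of the deposited values, and all 6 values lay below the receptor percentile, where a log2 change is imprecise. The change was 0.34 ± 0.12 (SE), with a 95% interval from 0.06 to 0.61, and did not pass (adjusted p = 0.218, limma). Msx1, its close relative, had a mean of 5.92 ± 0.24 in controls and 5.91 ± 0.29 with fibrinogen (SD, n = 3 each), and the 95% interval of its change ran from -0.37 to 0.36. Msx3, a dorsal neural tube gene, had a change of 0.10.

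The Dlx genes, which direct forebrain interneurons and craniofacial structures, had changes of 0.03 for Dlx1, -0.0067 for Dlx3, -0.0033 for Dlx4 and 0.11 for Dlx5. Groups overlapped for all 4 measured members. Dlx1 had a level of 5.97 ± 0.07 in controls and 6.0 ± 0.15 with fibrinogen (SD, n = 3 each), and Dlx5 lay below the receptor percentile. In the same arrays, of the 11 neuron markers 0 rose and 1 fell in limma, beside 1.81% and 1.29% of all genes. The one that fell was Gad2, which makes the transmitter GABA in interneurons, by 0.58 ± 0.09 (SE), with levels of 5.35 and 4.77 that lie below the receptor percentile. Without control 3 that call ended (adjusted p = 0.0514, limma). The neuron markers Gad1 and Slc32a1, also below the receptor percentile, had changes of 0.01 and -0.02 with overlapping groups.

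Forebrain patterning genes mostly lay above the receptor percentile, which does not by itself show that they are expressed, and gave no call. Of 16 listed genes 11 were measured, 9 lay above the receptor percentile, and 0 rose and 0 fell in limma. At p under 0.05 before adjustment (limma) 1 was higher and 1 lower, beside 8.12% and 7.46% of all genes. Lhx2, a LIM homeodomain factor that selects cortical identity, had levels of 8.21, 8.33 and 8.17 in controls and 8.23, 8.40 and 8.16 with fibrinogen. These overlap throughout, and the change was 0.03 with a 95% interval from -0.17 to 0.22. Emx2, a dorsal forebrain gene, had levels of 6.64, 6.87 and 6.83 in controls and 6.92, 7.04 and 6.97 with fibrinogen, where each fibrinogen array was higher but the change of 0.20 ± 0.08 (SE) did not pass (adjusted p = 0.295, limma). Without control 1, the lowest array, the Emx2 change was 0.13 (adjusted p = 0.628, limma). Otx1, from a family needed for forebrain and midbrain, also had every fibrinogen array above the controls, at 6.79, 6.71 and 6.83 against 7.06, 6.86 and 6.93, with a change of 0.17 ± 0.08 (SE; adjusted p = 0.337, limma). Six3, of the rostral forebrain and eye field, had 6.88 ± 0.05 and 6.90 ± 0.02 (SD, n = 3 each). Gsx2 of the lateral and Nkx2-1 of the medial ganglionic eminence had changes of -0.04 each. The interneuron genes Lhx6 and Lhx8 had changes of -0.08 and -0.04, and the level of Lhx8 lay below the receptor percentile.

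Hox genes, the largest family here with 21 members, did not change detectably. Of these 0 rose and 0 fell in limma, and 0 had an unadjusted p under 0.05 in either direction, beside 15.6% of all genes. Only 7 of the 21 (33.3%) lay above the receptor percentile, beside 71.3% of all genes. These 7 were Hoxa4, Hoxa7, Hoxb3, Hoxb4, Hoxb7, Hoxd1 and Hoxd4, which in the embryo are expressed in the hindbrain and spinal cord. Hoxd4, at 5.53, lay just above the percentile and Hoxd9, at 5.47, just below it. None of the 4 measured Hoxc genes was above it.

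By cluster, the median log2 change was 0.03 over 5 Hoxa genes, 0.03 over 6 Hoxb genes, 0.13 over 4 Hoxc genes and -0.07 over 6 Hoxd genes. The only Hox gene whose groups did not overlap was Hoxb7, at 5.91, 5.91 and 5.96 in controls and 6.03, 6.11 and 6.02 with fibrinogen. Its change was 0.13 ± 0.07 (SE, adjusted p = 0.424, limma), which did not pass. Hoxc5 had the largest difference, 0.24 ± 0.12 (SE, adjusted p = 0.377, limma), at levels of 3.88 and 4.12 that are near the median of the receptor genes. Control 3 was its lowest array, at 3.60, and without it the change was 0.105 (adjusted p = 0.718, limma). The 95% intervals of all 21 Hox genes lay within a 1.5-fold change in either direction. For the 14 at or below the receptor percentile a narrow interval may reflect background and does not show a stable RNA level.

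POU factors, with a homeodomain joined to a second DNA-binding domain, include the class III genes known from glia and neural progenitors. All 4 of these (Pou3f1, Pou3f2, Pou3f3 and Pou3f4) lay above the receptor percentile, and 0 rose and 0 fell in limma. At p under 0.05 before adjustment (limma) 1 was higher and 0 were lower, beside 8.12% and 7.46% of all genes. Pou3f2 (Brn2), which promotes neural progenitor programs, had levels of 7.53, 7.54 and 7.49 in controls and 7.80, 7.64 and 7.89 with fibrinogen. Controls were within 0.05 of each other, and fibrinogen 2 was the lowest of the fibrinogen arrays, though still above the controls. The change of 0.26 ± 0.08 (SE) did not pass (adjusted p = 0.156, limma), but it passed without fibrinogen 2, at 0.33 with an adjusted p of 0.0490, and with weights for array quality, at 0.31 with an adjusted p of 0.0399. In the other fits without 1 array its adjusted p was at least 0.272.

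Pou3f3 (Brn1) had levels of 7.89, 7.86 and 7.85 in controls and 8.13, 7.90 and 8.03 with fibrinogen, a change of 0.15 ± 0.08 (SE, adjusted p = 0.403, limma). Pou3f4 had a change of 0.16 ± 0.09 with overlapping groups. Pou3f1 (Oct6, also called Tst1), which is known from the maturation of Schwann cells, had 6.80 ± 0.09 and 6.78 ± 0.12 (SD, n = 3 each), and the 95% interval of its change was -0.22 to 0.17. The remaining 10 genes taken under the Pou symbol had changes between -0.13 and 0.13. Among these, the widely expressed Pou2f1 (Oct1) and Pou6f1 had changes of 0.08 and -0.09, and Pou5f1 (Oct4), the pluripotency factor, lay below the receptor percentile at 3.79 and 3.89.

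**Figure D3:**
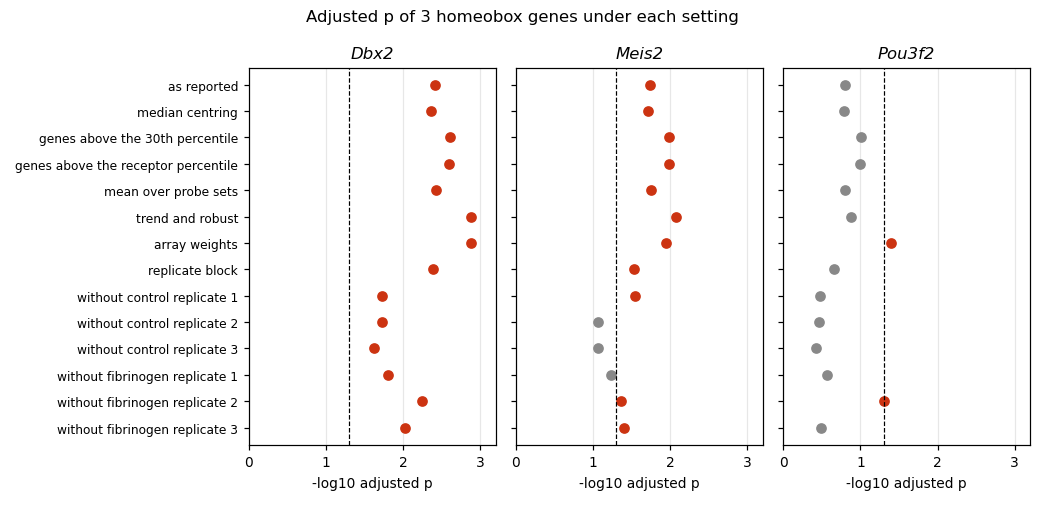
Adjusted p of Dbx2, Meis2 and Pou3f2 on a negative log10 scale (x axis) under the reported fit and 13 alternatives (rows); the dashed line is an adjusted p of 0.05 and red points are past it. Dbx2 is past the line under each setting, Meis2 is not in 3 fits without 1 array, and Pou3f2 is past it with array weights and without fibrinogen replicate 2.

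Genes that divide the ventral and intermediate spinal cord included Dbx2, but 8 of the 9 measured did not pass. Of the 9, 1 rose and 0 fell in limma, beside 1.81% and 1.29% of all genes. At p under 0.05 before adjustment (limma) 2 were higher and 0 lower, beside 8.12% and 7.46% of all genes. The median log2 change of the 9 was 0.0067. Irx3, an Iroquois factor that sets a ventral progenitor boundary, had levels of 6.0, 5.77 and 5.79 in controls and 6.06, 6.31 and 6.13 with fibrinogen. The groups did not overlap, with a margin of 0.06, and the change of 0.31 ± 0.10 (SE) did not pass (adjusted p = 0.141, limma). Irx5 and Irx6, which lie in the same gene cluster as Irx3, had changes of -0.01 and -0.04. Irx1, Irx2 and Irx4, of the other Iroquois cluster, had -0.03, 0.01 and 0.12. Irx4 read 4.73 on all 3 control arrays and lay below the receptor percentile. Nkx6-1, which patterns motor neuron progenitors, had 5.58 ± 0.12 and 5.57 ± 0.12 (SD, n = 3 each), a level close to the receptor percentile. Lhx1, Lhx5 and Pax3 lay below it.

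The rest of the Nkx, Lhx, En and sine oculis genes gave no call. The 8 Nkx genes had changes between -0.06 and 0.14, with Nkx6-3 highest at 0.14 ± 0.08 (SE, adjusted p = 0.477, limma). The 8 Lhx genes ran from -0.13 for Lhx9 to 0.03 for Lhx2. Six4 and Six6, members of the family of EYA partners, lay below the receptor percentile with changes of 0.08 and -0.07. En2, a gene of the midbrain and hindbrain boundary, was also below it, with a change of 0.01, and Pax2 and Pax8 of the same boundary had 0.02 and 0.03.

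Over all 84 genes that did not pass, 83 had a 95% interval that lay within a 1.5-fold change in either direction, Msx2 being the exception. The same held for 83 of all 86 homeobox genes (96.5%) and for 93.8% of all genes. It also held for 31 of the 32 homeobox genes at or below the receptor percentile, where narrow intervals may reflect background. A missed threshold does not show that a gene stayed the same, and changes smaller than these intervals could not be told from none with 3 arrays a group.

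**Figure D4:**
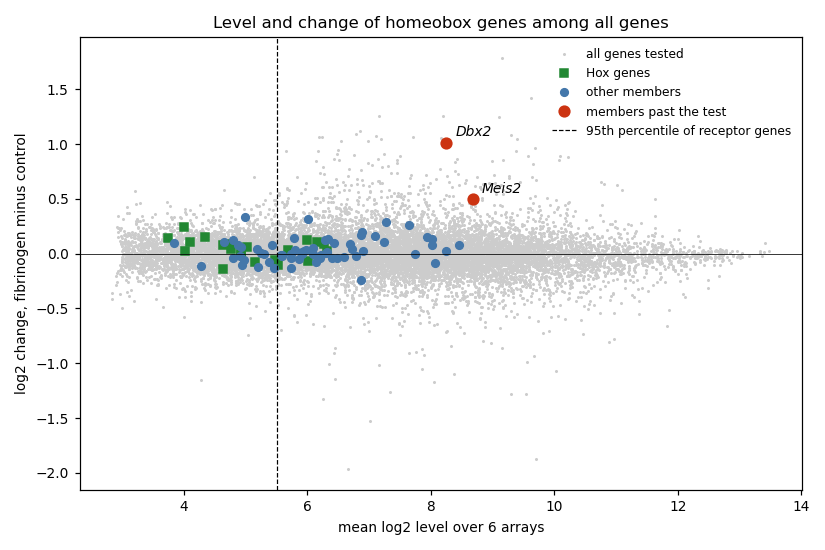
Mean log2 level over 6 arrays (x axis) and log2 change, fibrinogen minus control (y axis), for all 13949 genes (gray), the 21 Hox genes (green squares), the other homeobox genes (blue) and the 2 past the test (red); the dashed line is the 95th percentile of the receptor genes, 5.51. Of the 21 Hox genes 14 lie to the left of it.

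Homeobox genes outside these families gave no call either. Of 93 further genes listed, 59 were measured, and 0 rose and 0 fell in limma. At p under 0.05 without adjustment (limma) 6 were higher and 1 was lower, beside 8.12% and 7.46% of all genes. The median log2 change of the 59 was 0.01. The lowest p was that of Tgif1, a TALE repressor that restrains TGF-beta signaling, which had a change of 0.29 ± 0.07 (SE, adjusted p = 0.0769, limma). It passed when dim genes were left out, with an adjusted p of 0.0431 above the 30th percentile of levels and 0.0441 above the receptor percentile. The zinc finger and homeobox genes Zhx1 and Zhx2 had 0.24 ± 0.06 and 0.26 ± 0.08 (SE, adjusted p = 0.0967 and 0.146, limma). Of 16 measured genes for homeodomain cofactors (LIM-binding, EYA and Groucho proteins among them) 0 rose and 0 fell in limma. At p under 0.05 before adjustment (limma) 1 was higher and 1 lower, beside the same shares of all genes. The higher was Ssbp4, at 0.23 ± 0.07, and the lower was Lmo2, at -0.24 ± 0.08 (SE). Ldb1, the shared adaptor of LIM homeodomain proteins, had 0.13 ± 0.07.

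Some markers of astrocytes, OPCs, oligodendrocytes and neurons changed in the same arrays as Dbx2 and Meis2. Of the 6 astrocyte markers 2 rose and 0 fell in limma, beside 1.81% and 1.29% of all genes. Gfap rose by 1.24 ± 0.16 and the glutamate transporter gene Slc1a2 by 0.65 ± 0.07 (SE). At p under 0.05 before adjustment (limma) 4 were higher and 0 lower, beside 8.12% and 7.46% of all genes. Slc1a3 and Aldoc had changes of 0.23 ± 0.10 and 0.21 ± 0.08 (SE), neither past the threshold (adjusted p = 0.294 and 0.244, limma). For both, every fibrinogen array was above every control, as for 10.7% of all genes. Aqp4 and Gja1 had changes of 0.01 and -0.04. The log2 of the summed linear levels of the 6 astrocyte markers was 11.62 to 11.67 in controls and 11.94 to 12.13 with fibrinogen, with no overlap. In such sums the markers with the highest levels weigh most, and dim ones such as Gad2 among the neuron markers weigh little. Of the 5 OPC markers 3 fell and 0 rose, beside 1.29% and 1.81% of all genes. Gpr17 fell by 0.66, Pdgfra by 0.40 and Cspg4 by 0.35. Sox10 and Ptprz1 had changes of -0.05 and -0.03, neither past the test. The log2 of the summed levels of the 5 OPC markers was 13.60 to 13.67 in controls and 13.27 to 13.40 with fibrinogen. The calls for Pdgfra and Cspg4 ended with the replicate number as a block (adjusted p = 0.0770 and 0.0895, limma). Pdgfra passed in 1 of 6 fits without 1 array, that without fibrinogen 3 (adjusted p from 0.0377 to 0.159), Cspg4 in 0 of 6 (0.0670 to 0.179), and Gpr17 in 4 of 6, not without control 2 or 3 (0.0690 and 0.0714). Of 4 oligodendrocyte markers 0 rose and 1 fell in limma, beside 1.81% and 1.29% of all genes. The one that fell was Cnp, by 0.48 ± 0.08 (SE), a call that ended without control 2 or 3 (adjusted p = 0.0785 and 0.0736, limma). Mbp, Mag and Mog had changes of 0.20, 0.02 and -0.14, none past the test. The log2 of the summed levels of the 4 overlapped, at 11.38 to 11.50 in controls and 11.26 to 11.45 with fibrinogen. The 11 neuron markers had overlapping sums, 11.50 to 11.55 and 11.49 to 11.55, and so did the microglia markers, 7.88 to 8.10 and 7.91 to 8.09. Of 7 microglia, 3 endothelial and 5 pericyte and fibroblast markers 0 rose and 0 fell in limma, and 0 had an unadjusted p under 0.05. None of these lists had a marker at 0, since log2 array levels have no 0. The part of other cells in the rises of Dbx2 and Meis2 was not tested.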

How the data were processed

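The deposited table holds log2 levels, 1 per probe set and array, for 6 Affymetrix arrays. The submitters' processing notes list RMA and limma, with no version or role, and the authors are taken to have normalized these log2 values with RMA, which sets arrays to a common distribution and can compress differences of dim genes; the scale was inferred from the values. Sample titles gave the groups and replicate numbers. Nothing in the labels says that replicates were separate cultures, so p-values reflect the spread among these samples alone, which may be technical. No array copied another (at most 3.64% of genes identical on a pair).

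Of 26312 probe sets, 1206 were blank on every array, 14700 of the rest had 1 gene symbol in the platform annotation, 275 several and 10131 none. The probe set with the highest mean was kept per gene (13949 genes). The 86 homeobox genes had 1 probe set each and matched RefSeq gene IDs. Probes can be shared between near-identical relatives, so values of close paralogs are uncertain. The test was limma 3.58.1 under R 4.3.3 (lmFit, eBayes, two-sided, no covariates, 4 residual degrees of freedom before moderation), which was checked on simulated data. With 3 arrays a group the smallest p of an exact permutation test is 0.1, so none was run. The genes and lists were chosen with earlier results of these data known. Named genes were those that passed, those above the receptor percentile, the largest change and lowest p per family, and the 3 lowest p of the cofactor and other homeobox lists; not all are printed, and dim Dbx1, Irx4, Hoxd9, Six6, Lhx5, Lhx8, Pax3, Pax4, Pax9 and Pou5f1 were added after their values were seen. Alternatives were median centring, 2 filters on dim genes, the mean over probe sets, trend and robust variance, array weights, a replicate block and leaving out each array.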

Additional observations from a re-analysis of the deposited data

How the results depend on the processing

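The direction of Dbx2 and Meis2 held in all 13 alternatives, and 83 of the 86 homeobox genes passed in none of them. Of the genes that did not pass, 36 changed sign in at least 1 alternative, all with a reported change of at most 0.08 in size. All genes changed numbered 432 as reported, 659 with array weights, 315 with the replicate number as a block and 151 to 436 in fits without 1 array. Beside Emx2 and Hoxc5, leaving out 1 array moved the change of other genes that did not pass, among them Irx4 to 0.06 (without fibrinogen 2), Meis3 to 0.04, Lhx9 to -0.02 and Pou3f4 to 0.09 (without fibrinogen 3) and Pou3f3 to 0.10 (without fibrinogen 1). The number of homeobox genes that rose was 2 with the replicate block and 1 to 3 in fits without 1 array, and 0 fell in each. Same-numbered arrays had correlations of deviations of 0.0109 to 0.0278, and arrays with different numbers -0.0213 to -0.0016. Such low values cannot settle whether the numbers pair the samples, and the labels do not say. The median log2 change of the homeobox genes was 0.01 after median centring, where that of all genes was -0.02, and 0.019 to 0.05 in fits without 1 array. Of the homeobox genes outside the families, 1 rose when genes under the 30th percentile, or under the receptor percentile, were left out, which leaves fewer genes tested. The causes of this and the other differences were not tested. Signal near that of the receptor genes limits the 32 genes at or below their percentile.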
